A study of Danio rerio with 4 samples.

Results

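The genes prrx1a, prrx1b, tbx15, runx2a and barx1 encode transcription factors of embryonic mesenchyme and of the skeleton. They were chosen by symbol, from genes already seen to be lower under SU5402 in these arrays, so their differences between treatments are given as a description and not tested. All 5 were on the array, through 7 of 15502 probe sets, 2 each for tbx15 and runx2a and 1 each for the others, among 8793 genes with a single symbol.

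RNA came from hearts of wild-type zebrafish at 48 hours post fertilization (hpf), drawn out by syringe together with neighbouring tissue. SU5402, a blocker of the kinase of fibroblast growth factor (FGF) receptors, was used at 10 μM, diluted from a 1 mM stock in DMSO, and control siblings were kept in 1% DMSO. Up to 20 embryos shared a vial of 3 mL. Each treatment had 2 replicates, each on 1 Affymetrix Zebrafish array, so the number of arrays, 4, limits the precision. When the treatment began and ended is not stated in the labels, nor whether replicates came from separate clutches. Any p-value therefore reflects no more than how far these arrays differ from each other, possibly for technical reasons, and the smallest p of an exact permutation test of 2 against 2 is 0.333.

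Embryonic mesenchyme is loose tissue that gives rise to connective tissue, cartilage and bone. In the fin bud and limb bud, FGFs from the outer ridge and from the mesenchyme below it keep each other active and sustain outgrowth, and in the pharyngeal arches, beside the heart, neural crest cells form mesenchyme from which cartilage arises. FGF receptors signal largely through MAP kinase, which switches on ETS factors of the Pea3 group. Prrx1 factors are paired-related homeodomain proteins of fin, limb and craniofacial mesenchyme. Tbx15 is a T-box factor of limb and craniofacial mesenchyme in the mouse, Runx2 is the master regulator of bone-forming cells in mammals, and Barx1 is a homeodomain protein of arch mesenchyme needed for cartilage condensation in zebrafish.

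All values below are on the log2(intensity + 16) scale unless called intensities, and differences are SU5402 minus DMSO, which this scale understates for dim probe sets. The array also carries 17 Tag controls, probe sets made to match nothing in the fish, and the 95th percentile of their intensities, 136 or 7.25 on the log2 scale, served as a guide to background. Between 55.2% and 56.1% of probe sets lay above it on each array. In the fit over the whole table, 0 of 15502 probe sets (0.0%) had a limma adjusted p under 0.05, the lowest being 0.255, and 2008 had an unadjusted p under 0.05 (13.0%). Of 8 measured FGF readout genes, 7 had a lower mean in SU5402, with a median of -1.82, and the same 7 had an unadjusted p under 0.05 in limma. Among them spry4, a feedback inhibitor of FGF signalling, stood at 9.58 and 10.12 in DMSO and 8.48 and 8.41 in SU5402, a difference of -1.41 (SE 0.33). The ETS factor gene etv5b was at -3.90 (SE 0.32), with SU5402 values of 7.21 and 7.31, close to the Tag background. The phosphatase gene dusp6 was at -1.81 (SE 0.39), and its second probe set at -1.01. The readout gene without a lower mean, spry2, was at 0.18 (SE 0.30) and below the Tag background on every array. Its other probe sets ran from -1.09 to 0.21.

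The prrx1 pair was lower in both SU5402 arrays than in either DMSO array. For prrx1b (NCBI gene 337089), intensities were 1627 and 3405 in DMSO and 78.2 and 113.9 in SU5402. The groups lay far apart, with 3.66 log2 units between the lower DMSO array and the higher SU5402 array, and both SU5402 arrays lay below the Tag background. Log2 means were 11.21 ± 0.75 in DMSO and 6.79 ± 0.33 in SU5402 (SD, n = 2 each), a difference of -4.42 (SE 0.45). Since the SU5402 side is only bounded, prrx1b was by group means at least 15.6-fold lower after SU5402, with dim arrays raised to the Tag background. This bound covers the SU5402 side alone and not the spread between the DMSO arrays. For prrx1a (NCBI gene 406431), intensities were 759.6 and 1236 in DMSO and 138.6 and 186.7 in SU5402. All 4 prrx1a values lay above the Tag background, though SU5402 replicate 1 only just, and the gap between the groups was 1.94. Its means were 9.94 ± 0.49 and 7.47 ± 0.28 (SD, n = 2 each), a difference of -2.48 (SE 0.38) or 5.57-fold. As prrx1a is the one of the 5 genes measured above background on every array, its fold is not set by a floor. Between replicates, prrx1a was higher in replicate 2 by 0.69 in DMSO and 0.39 in SU5402, and prrx1b by 1.06 in DMSO.

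The T-box gene tbx15 (NCBI gene 246222) was also low in both SU5402 arrays. Its probe set of higher mean had intensities of 564.6 and 1948 in DMSO and 48.4 and 28.9 in SU5402. The DMSO arrays differed from each other by 1.76 log2 units, the widest spread within DMSO among the 7 probe sets, yet the gap between the groups was 3.17. Means were 10.06 ± 1.24 and 5.75 ± 0.37 (SD, n = 2 each), a difference of -4.31 (SE 0.61). With dim arrays raised to the Tag background, tbx15 was by group means at least 7.03-fold lower after SU5402. This bound too leaves out the spread between the DMSO arrays. The second tbx15 probe set was dim, at intensities of 113.0 and 239.9 in DMSO and 65.7 and 52.6 in SU5402. Only DMSO replicate 2 lay above the background there, the groups did not overlap, and the difference was -1.28 (SE 0.42). In both probe sets DMSO replicate 2 was highest and DMSO replicate 1 next. The SU5402 values of both lay below the Tag background, so their order is not read.

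For the bone regulator gene runx2a (NCBI gene 405784), the 2 probe sets did not give the same result. The one of higher mean had intensities of 2182 and 3588 in DMSO and 135.1 and 557.7 in SU5402. SU5402 replicate 2 stood well above SU5402 replicate 1, by 1.92 log2 units, and the groups were still 1.94 apart. SU5402 replicate 1 lay just below the Tag background, at 7.24. Means were 11.46 ± 0.50 and 8.20 ± 1.36 (SD, n = 2 each), a difference of -3.26 (SE 0.67), which was -2.29 with SU5402 replicate 1 left out and -4.22 with replicate 2 left out. The other probe set had intensities of 91.0 and 155.2 in DMSO and 96.7 and 114.4 in SU5402. Its groups overlapped, only DMSO replicate 2 was above the Tag background, and the difference of -0.16 (SE 0.36) turned to 0.18 without DMSO replicate 2. By the suffix of its identifier this probe set may match more than 1 transcript. With the 2 probe sets averaged, runx2a was at -1.71 and tbx15 at -2.80.

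The arch mesenchyme gene barx1 (NCBI gene 553644) was dim in most arrays. Its probe set had intensities of 295.8 and 77.7 in DMSO and 9.58 and 21.6 in SU5402. Only DMSO replicate 1 lay above the Tag background, so the other 3 values are not well above it, and the gap between the groups was 1.32. Means were 7.42 ± 1.23 and 4.96 ± 0.39 (SD, n = 2 each), a difference of -2.46 (SE 0.61). With values below the Tag background raised to it in both groups the difference was -0.52, and with a pseudocount of 64 it was -1.51. Against SU5402 arrays raised to that background, barx1 was 1.13-fold lower. This is not a lower bound, since DMSO replicate 2 was itself below the background. It was at -1.60 without DMSO replicate 1 and -3.33 without DMSO replicate 2.

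**Figure D1:**
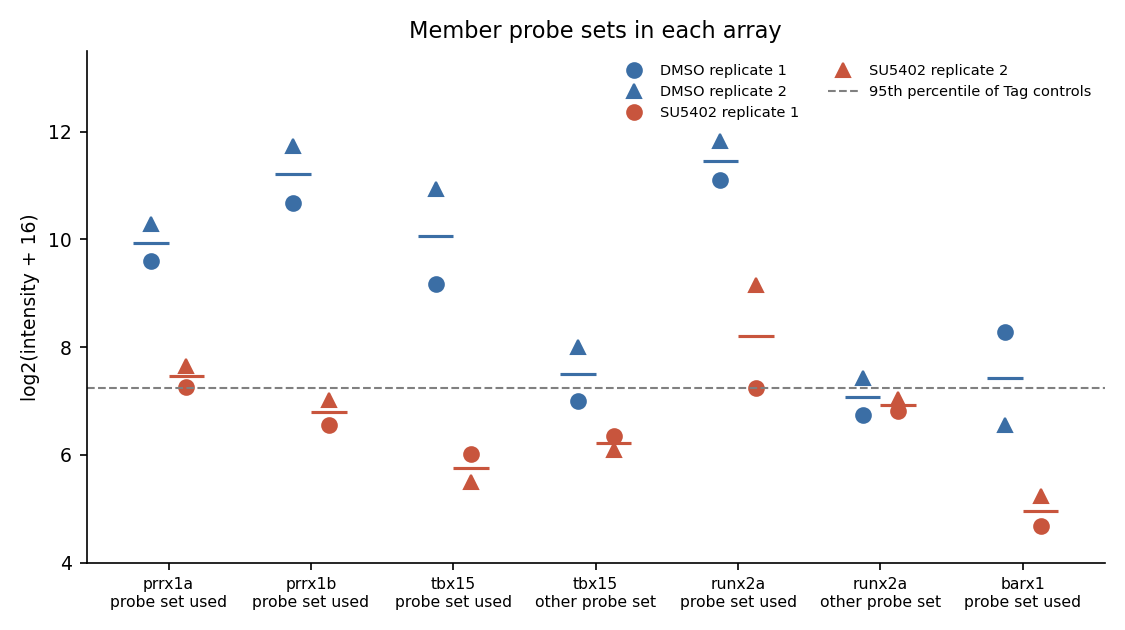
Log2(intensity + 16) of the 7 probe sets (horizontal axis) in the 2 DMSO arrays (blue) and the 2 SU5402 arrays (red), circles for replicate 1 and triangles for replicate 2, with short bars at group means and a dashed line at 7.25, the 95th percentile of the Tag controls. In 6 of the 7 probe sets both red points lie below both blue points, and only prrx1a has all 4 points above the dashed line.

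Of the 7 probe sets, all 7 had a lower mean in SU5402, 6 had groups that did not overlap and 0 passed limma at an adjusted p under 0.05. Over the whole table, 50.8% of probe sets had a lower mean, 21.8% had lower SU5402 values without overlap and 0.0% passed. Because these genes were picked from this contrast, nothing follows from setting the counts side by side. With 1 probe set a gene, the one of higher mean, the median difference of the 5 genes was -3.26, beside -0.08 for all 8793 genes. This median is the value of runx2a, whose other probe set was at -0.16. With a floor at the Tag background the median of the 5 genes was -2.81. Counted from the lowest difference among all 15502 probe sets, prrx1b was 5th, tbx15 6th, runx2a 16th, prrx1a 35th and barx1 37th, while the other probe sets of tbx15 and runx2a were at places 394 and 6043. These places use values below the Tag background, in both SU5402 arrays of prrx1b, tbx15 and barx1 and in DMSO replicate 2 of barx1. For runx2a, SU5402 replicate 1 was just below it, at 7.24. The exact order of the places thus carries no meaning, and with a floor at that background barx1 was at -0.52.

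**Figure D2:**
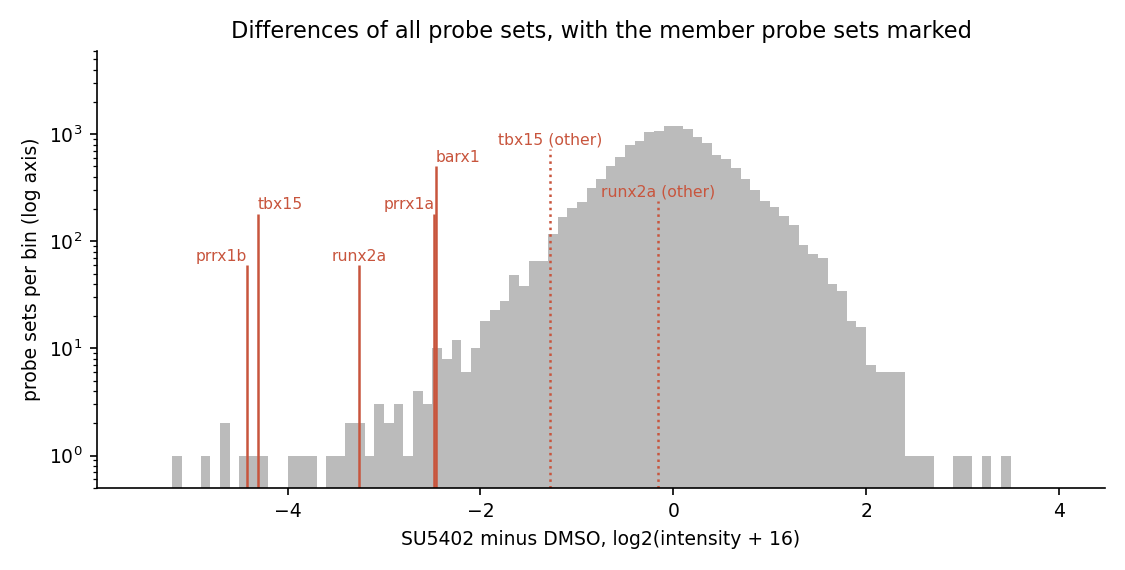
Histogram of the SU5402 minus DMSO difference in log2(intensity + 16) for all 15502 probe sets (vertical axis logarithmic), with solid red lines at the probe set used for each of the 5 genes and dotted lines at the other probe sets of tbx15 and runx2a. The solid lines run from -4.42 to -2.46. The line at -2.46 is barx1, which rests on 3 of 4 arrays below the Tag background and is at -0.52 with values raised to it. The dotted line of runx2a at -0.16 lies in the body. The dotted line of tbx15 at -1.28 lies toward the lower tail, where 2.54% of probe sets fell as far.

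The extracts held other tissue than heart, and markers of several cell types differed between treatments. In bulk RNA, fewer cells of a type and less RNA per cell cannot be told apart. Heart muscle markers were higher in SU5402 in 6 of 6 measured genes without overlap (22.2% of all probe sets were so), and their summed intensity was 7230 to 15270 in DMSO and 30720 to 36430 in SU5402. Neuron markers were higher without overlap in 9 of 9, with sums of 17440 to 23810 in DMSO and 31500 to 47790 in SU5402. Over all genes 56.2% had a lower mean in SU5402, the share to set beside the next 3 counts. Skin markers had a lower mean in 8 of 8, but their sums overlapped, at 44300 to 44480 in DMSO and 21190 to 55620 in SU5402. Their median was -0.55, and 0.05 without SU5402 replicate 1. Skeletal muscle markers had a lower mean in 8 of 10, with sums of 2558 to 7128 and 3716 to 3861. Endothelial markers were lower in 3 of 4, with sums of 1138 to 1441 in DMSO and 461.4 to 508.9 in SU5402. Among them fli1 was at -1.86 (SE 0.33), but its second probe set was at 0.88. The endothelial median was -0.88, or -0.57 with probe sets averaged. Of these markers, 2 of skeletal muscle, 2 of endothelium and 0 of heart muscle, neuron or skin lay below the Tag background on all 4 arrays. Epicardial, erythroid and leukocyte markers had medians of 0.29, 0.13 and -0.22, with 0 of them at an unadjusted p under 0.05 in limma. In these lists 2 of 3, 2 of 6 and 4 of 6 measured genes lay below the Tag background on all 4 arrays. No lack of change is therefore read from their medians. The part of this tissue makeup in the differences of the 5 genes was not tested.

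Many measured relatives of the 5 genes were too dim for a difference to show. Of 13 other T-box genes, 7 lay below the Tag background on all 4 arrays. Among the 13, 5 had a lower mean and 8 a higher one, with a median of 0.05, and 0 had an unadjusted p under 0.05 in limma (8.04% of all genes did so as lower and 5.31% as higher). The T-box gene with the lowest value was tbx18, of epicardium and fin mesenchyme, at 4.84 and 7.05 in DMSO and 4.49 and 4.62 in SU5402, a difference of -1.39 (SE 0.71) without overlap, though below the Tag background on every array. Below it on every array was also tbx5a, which specifies the pectoral fin field and acts in the heart (-0.40, SE 0.73). Of the brighter members, tbx3a (0.48, SE 0.51) and tbx2b (0.06, SE 0.31), repressors of chamber genes in the heart, overlapped between treatments, as did tbr1b (-0.29), eomesa (-0.23) and mgaa (0.05). The gene tbx1 was at -0.16, and tbx4, tbx6, tbx16, tbxta and tbx20 were not well above background, below the Tag level on every array.

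The second zebrafish copy of Runx2, runx2b, stood at 6.32 and 6.85 in DMSO and 7.24 and 6.08 in SU5402, dim on all arrays and at 0.07 (SE 0.48). Its 2 probe sets gave 0.07 and 0.08. The Runx relative runx3, which acts in zebrafish pharyngeal cartilage, was at 7.88 and 8.16 in DMSO and 7.57 and 7.89 in SU5402, a difference of -0.30 (SE 0.32) with overlapping groups, and its second probe set was at 0.35. The blood stem cell regulator runx1 was at 0.04 and cbfb, the partner subunit of Runx proteins, at 0.05, both below the Tag background on every array. Of the other paired-type homeobox genes listed, 2 of 18 were measured, both of neurons. They had higher means in SU5402, with otpb at 1.35 (SE 0.61) and vsx1 at 0.61 (SE 0.51). The groups of vsx1 overlapped. With 1 array left out, otpb fell as low as 0.44 and vsx1 as low as -0.1. The median of the 2 was 0.98, or 0.17 without SU5402 replicate 1. The gene barx2, the listed relative of barx1, is not analysed here. No test of the difference between the 5 genes and these relatives was made, since the 5 were selected on it.

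Regulators of the fin bud were mixed. Of 36 listed, 21 were measured, 16 had a lower mean and 5 a higher one, with a median of -0.49 (56.2% of all genes had a lower mean), and in limma at an unadjusted p under 0.05 there were 5 lower and 1 higher (8.04% and 5.31% of all genes). Of the 21, 8 lay below the Tag background on all 4 arrays, and the median was -0.22 with a floor at that background, -0.79 without SU5402 replicate 2 and -0.28 without DMSO replicate 2. Lowest was fgf10a, an FGF ligand of fin bud mesenchyme, at 9.06 and 10.89 in DMSO and 6.71 and 7.49 in SU5402 (-2.88, SE 0.65). DMSO replicate 2 stood highest for fgf10a, as it did for prrx1b and tbx15. The distal fin Hox gene hoxa13b was at 6.74 and 7.52 in DMSO and 5.15 and 4.60 in SU5402 (-2.25, SE 0.41), above background on 1 array. The mesenchymal bHLH gene twist3 was at -2.01 (SE 0.73), also above background on 1 array only. The homeobox gene msx1b, above it on all 4, was at -1.80 (SE 0.62). Both were lower without overlap, as were 21.8% of all probe sets, though for twist3 the values on either side of the gap, 7.19 and 6.79, lay below background. The gene hand2, needed for both fin bud and heart, was bright on all arrays, at 12.41 and 12.93 in DMSO and 12.27 and 12.31 in SU5402. It was also lower without overlap, but by less, at -0.38 (SE 0.33).

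The lowest differences in these lists were in fin fold genes. Of 17 listed, 7 were measured, 7 had a lower mean and 4 had an unadjusted p under 0.05 in limma, with a median of -1.09, or -2.49 without the dimmest 50% of probe sets. Over all genes 56.2% had a lower mean and 8.04% were lower at that p. The structural fin fold genes and2, and3 and and1 were at -5.12, -4.63 and -3.97 (SE 0.99, 1.37 and 0.97), or at -3.52, -2.37 and -2.45 with SU5402 replicate 1 left out, and frem3, of the basement membrane, at -1.09 (SE 0.38). In SU5402, and1 stood at 7.42 and 10.45, so replicate 2 was the higher, as it was for runx2a.

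Arch and crest genes had a lower mean in 20 of 25 measured, with a median of -0.53, and at an unadjusted p under 0.05 in limma 7 were lower and 2 higher. Over all genes these shares were 56.2%, 8.04% and 5.31%. The homeobox gene dlx4a stood at 9.65 and 9.55 in DMSO and 7.13 and 8.15 in SU5402 (-1.97, SE 0.42), with dlx4b at -1.62 (SE 0.41). The Notch effector gene hey1 was at -1.74 (SE 0.31), with both SU5402 values, 6.80 and 6.99, below the Tag background. The gene snai2, a regulator of epithelial to mesenchymal transition, was at -1.69 (SE 0.55), where other snai2 probe sets ran from -1.23 to 0.14. The 2 counted as higher were foxd3, at 1.29 (SE 0.49), and edn1, at 1.13 (SE 0.44). Of 13 skeletal regulators other than runx2a, 7 lay below the Tag background on all 4 arrays. Of the 13, 8 had a lower mean, and the median was -0.30, or -0.89 without the dimmest 50% of probe sets, -0.46 with a floor at the Tag background and -0.51 without SU5402 replicate 1. In limma 1 had an unadjusted p under 0.05, as lower, a share near that of all genes (8.04%). This was the forkhead gene foxc1a, at 10.70 and 9.46 in DMSO and 8.86 and 8.89 in SU5402 (-1.21, SE 0.47). The cartilage regulator gene sox9b was at -1.15 (SE 0.50), with a second probe set at 0.24, and foxc1b was at -0.62. The gene mef2ca, at 6.51 and 6.44 in DMSO and 6.20 and 4.95 in SU5402, was below the Tag background on every array. The bone factor gene sp7, which acts after Runx2 in bone formation, stood at 5.80 and 6.48 in DMSO and 7.29 and 5.06 in SU5402, with overlap and near background.

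Cartilage and bone matrix genes, products of skeletal cells, had a lower mean in 11 of 17 measured and a median of -1.24, with 7 lower and 1 higher at an unadjusted p under 0.05 in limma. The same shares over all genes apply, and a lower mean in 11 of 17 is close to the 56.2% of all genes. Of the 17, though, 4 lay below the Tag background on all 4 arrays. These were acanb, col11a2, ucmaa and spp1, all among the 6 with a higher mean, so the count of 11 partly rests on dim values. The collagen gene col9a3 was at 10.36 and 9.39 in DMSO and 8.44 and 6.65 in SU5402 (-2.33, SE 0.66). The bone and connective tissue collagen gene col1a1a was at -2.29 (SE 0.76), the matrilin gene matn4 at -2.06 (SE 0.44) and the cartilage collagen gene col2a1a at -1.93 (SE 0.75). The 1 matrix gene counted as higher was cnmd, at 1.42 (SE 0.51), with a second probe set at 1.16. For col9a3 and col2a1a, DMSO replicate 1 stood above DMSO replicate 2, the order seen for barx1 and not for the other 4 genes. Without DMSO replicate 1 the median of the matrix genes was -0.59, and without SU5402 replicate 1 it was -0.76.

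**Figure D3:**
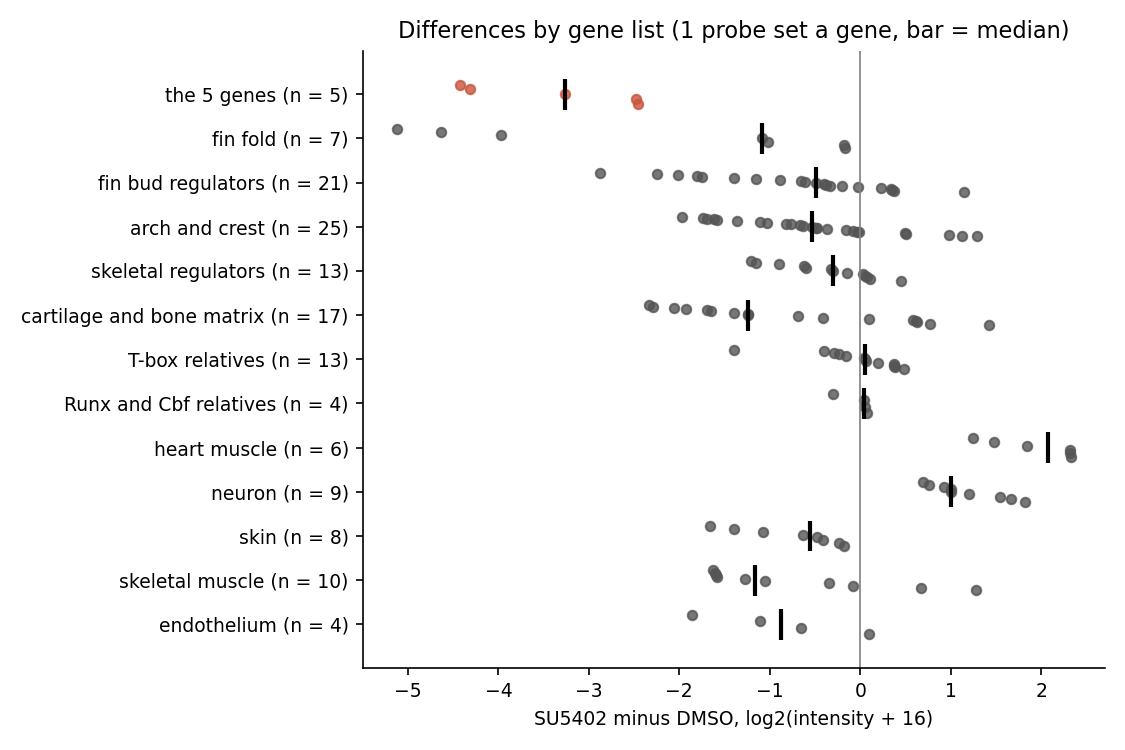
SU5402 minus DMSO differences in log2(intensity + 16) (horizontal axis), 1 point per gene, for the 5 genes (red) and for the gene lists named on the vertical axis (grey), with a black bar at each median. The 5 genes lie between -4.42 and -2.46, the T-box and Runx relatives, 7 of 13 and 3 of 4 of them below the Tag background on all arrays, centre on 0.05, and the heart muscle and neuron markers lie to the right of 0.

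The 2 DMSO arrays give a comparison that does not use the treatment. Of the 5 genes, tbx15, prrx1b, runx2a and prrx1a were higher in DMSO replicate 2, by 1.76, 1.06, 0.71 and 0.69, and barx1 was lower there, at -1.73. Over all probe sets the median absolute difference between these arrays was 0.32 and the median signed one -0.03, with 47.1% higher in replicate 2. Fin fold genes were higher in replicate 2 in 5 of 7 (median 0.70) and fin bud regulators in 15 of 21 (median 0.42). Of these 21, 8 lay below the Tag background on all arrays. Cartilage and bone matrix genes were higher in replicate 1 in 12 of 17 (median -0.76), and arch and crest genes were split, with 14 of 25 higher in replicate 1 (median -0.17). The direction of prrx1a, prrx1b, tbx15 and runx2a was not particular to fin genes, since FGF readout genes were also higher in replicate 2 (6 of 8, median 0.46). Runx relatives (4 of 4, median 0.40, 3 of them below background) and skeletal regulators (8 of 13, median 0.28) were too. Of the 13 skeletal regulators, 7 lay below the Tag background on all arrays. Both lists hold runx2b, runx3 and cbfb, so they are not separate counts, and the order of values below background carries little meaning. The direction of barx1, which was below the Tag background in replicate 2, was that of most matrix genes. Markers of other tissue differed between the same arrays, with skeletal muscle higher in replicate 2 in 10 of 10 (median 0.84) and heart muscle higher in replicate 1 in 5 of 6 (median -1.51), and their part was not tested. With 1 array on each side, these differences have no replicate check.

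**Figure D4:**
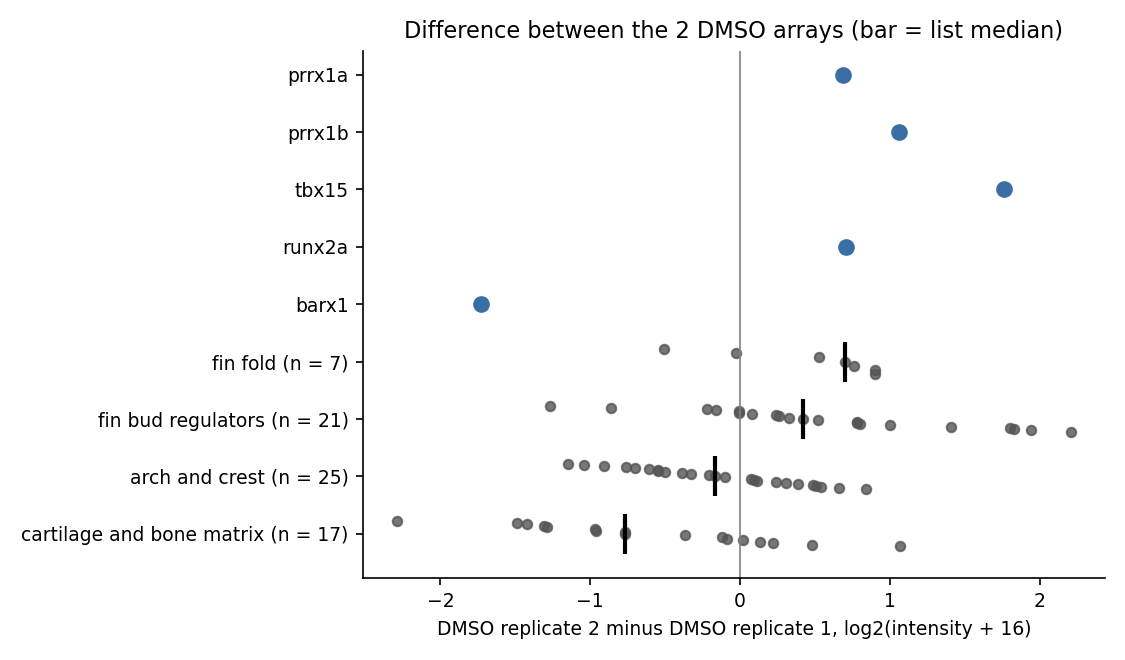
Difference between the DMSO arrays, replicate 2 minus replicate 1, in log2(intensity + 16) (horizontal axis) for each of the 5 genes (blue) and for the members of 4 gene lists (grey, black bars at medians). Of the blue points barx1 alone, at -1.73, lies left of 0.

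Between the SU5402 arrays, runx2a was 1.92 higher in replicate 2, with replicate 1 just below the Tag background. The gene prrx1a, above the Tag background on both arrays, was 0.39 higher in replicate 2. For barx1, prrx1b and tbx15 both SU5402 arrays lay below that background, so no difference between them is read. The median absolute difference over all probe sets was 0.45, and 42.7% were higher in replicate 2. Fin fold genes were higher in replicate 2 in 6 of 7 (median 0.64) and skin markers in 8 of 8 (median 1.37).

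Profiles over the 4 arrays, each centred on the gene's own mean, were used to compare the 5 genes with each other and with 6168 other genes above background in at least 1 group. Likeness was the Euclidean distance over these 4 arrays, and since the 5 genes were chosen for their treatment difference it describes the same contrast. Among the 5 genes, prrx1b and tbx15 were nearest, at a distance of 0.86, then prrx1a and runx2a at 1.34. The paralogues prrx1a and prrx1b were 1.96 apart, and tbx15 and barx1 were farthest at 3.18. Of the 5 genes only prrx1a lay above the Tag background on every array. Each of these distances, and the mean profile of the 5, thus uses values below it, so the exact distances carry little meaning. Nearest to the mean profile of the 5 was vcanb, of the matrix proteoglycan versican (distance 0.38), at 10.41 and 10.97 in DMSO and 6.67 and 7.18 in SU5402. Next came rcn3, of a calcium-binding protein of the endoplasmic reticulum (0.49), and etv5b (0.61). The others of the 10 nearest were c1qtnf5, fgfbp2a, anxa1b, fkbp9, ecrg4a, si:ch211-76l23.4 and hoxc8a, at distances of 0.65 to 0.89 and differences of -3.51 to -2.62.

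The nearest genes varied from one of the 5 to another. For prrx1b, tbx15 and barx1 the distances use SU5402 values below the Tag background, and for barx1 also DMSO replicate 2. For runx2a, SU5402 replicate 1 was just below it. For prrx1a the nearest were the ETS factor gene etv4 (distance 0.17), the prolyl isomerase gene fkbp9 (0.18) and lrrc17 (0.24). The gene etv4 stood at 9.06 and 9.85 in DMSO and 6.94 and 7.13 in SU5402, with both SU5402 values below the Tag background. For lrrc17, SU5402 replicate 1 lay below it, at 6.97. For prrx1b they were angptl7, vcanb and etv5b (0.39, 0.75 and 0.75), and for tbx15 the retinoic acid binding protein gene crabp2a (0.85), then angptl7 and etv5b (1.02 and 1.14). For runx2a they were si:ch211-76l23.4, hoxc8a and anxa1b (0.19, 0.27 and 0.36). For barx1 they were hoxb8a (0.58), the matrix gene aspn (0.79) and matn4 (0.82), and hoxb8a stood at 9.12 and 8.10 in DMSO and 6.14 and 6.28 in SU5402. The gene hoxc8a was higher in DMSO replicate 2 (11.21 and 11.56), as runx2a was, and hoxb8a in DMSO replicate 1, as barx1 was. The distance uses both DMSO arrays, so this shared order largely follows from how the genes were picked.

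**Figure D5:**
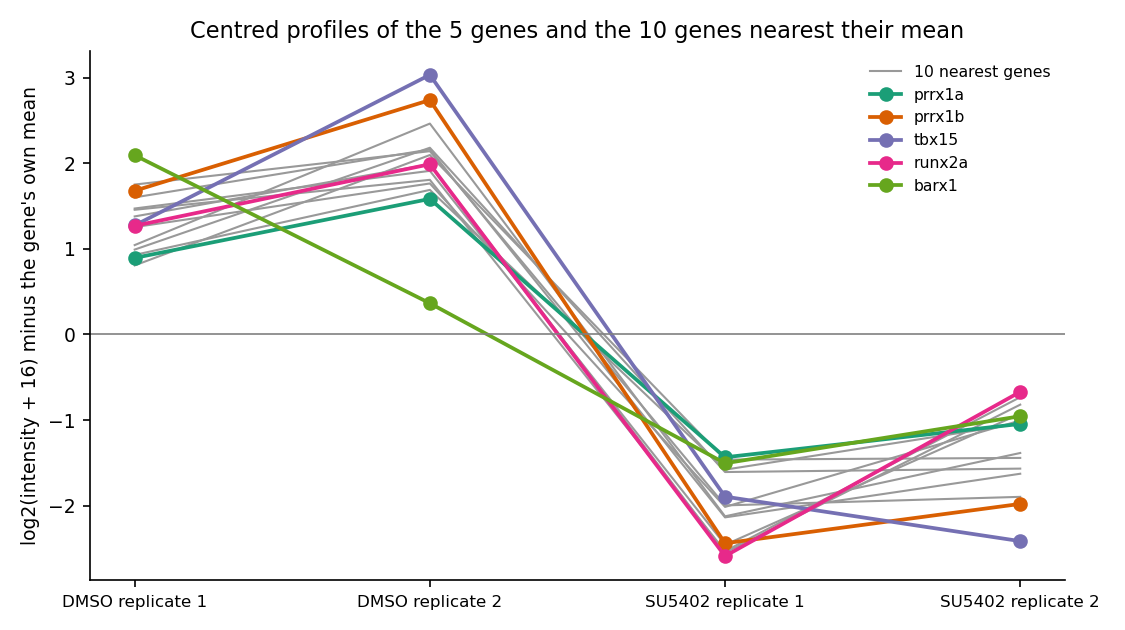
Log2(intensity + 16) minus each gene's own mean over the 4 arrays (vertical axis) in each array (horizontal axis), for the 5 genes (colours) and the 10 genes nearest to their mean profile (grey). Lines join values of 1 gene and carry no order in time. All 5 genes lie above 0 in both DMSO arrays and below 0 in both SU5402 arrays, and barx1 is the one line that drops between the DMSO replicates.

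Genes beside the 5 on the chromosome were compared as well, using gene order in the RefSeq annotation of GRCz12tu and the nearest 2 measured genes on each side. Of these 20 neighbours, 9 had a lower mean in SU5402 (56.2% of all genes did), and the median was 0.03. In limma 4 had an unadjusted p under 0.05, 1 lower and 3 higher (8.04% and 5.31% of all genes). Many of the 20 lay below the Tag background on every array, namely mfsd12a, kifap3b, paqr8, wars2, pla1a, gdf3, fam167aa, rp1l1a, ptpdc1a and hdac11. The median and the count of lower means are partly set by such values, so neither shows a lack of change. The prrx1 paralogues each lie near a copy of the kinesin-associated gene kifap3. Beside prrx1a, kifap3b stood at 5.17 and 5.88 in DMSO and 5.68 and 5.43 in SU5402 (0.03, SE 0.37). All of these values were below the Tag background, so no lack of change is read from them. Near prrx1b, kifap3a was higher without overlap, at 9.92 and 9.76 in DMSO and 11.16 and 10.37 in SU5402 (0.93, SE 0.38), the direction opposite to prrx1b. The gene next to tbx15 on one side, wdr3, which acts in ribosome assembly, was lower without overlap, at 9.98 and 9.83 in DMSO and 8.45 and 7.95 in SU5402 (-1.70, SE 0.33). On the other side, wars2, of a mitochondrial tRNA synthetase, overlapped between treatments (-0.83, SE 0.58), below the Tag background on every array. Beside barx1, ptpdc1a was at 0.02, below the Tag background on every array, and phf2, of a histone demethylase, at 0.13. The other neighbours at an unadjusted p under 0.05 in limma were znf395b, on the far side of prrx1b, at 1.35 (SE 0.32) and rp1l1a, in the region of runx2a, at 1.44 (SE 0.36) but below the Tag background on all 4 arrays.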

How the data were processed

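The deposited table gives an intensity, not logged, for each probe set on each of the 4 arrays. How probes were summarised and scaled is not given in the sources used here. Each array's mean was 500.1 once 2% was trimmed from both ends, so the arrays had been brought to a common mean. Scanner files and detection calls were not used here. No test used the 115 control probe sets. Symbols came from a platform annotation updated through Entrez identifiers: 10795 probe sets had 1 symbol, 135 several and 4572 none, and 10711 were matched to a current gene.

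Intensities were taken to log2(value + 16) and fitted with limma 3.58.1 (lmFit and eBayes, R 4.3.3, two-sided) with a treatment term only. P-values were adjusted by Benjamini-Hochberg over the 15502 probe sets, and the fit was tested on simulated data. Each gene's probe set of highest mean stood for it. Figures used matplotlib 3.10.9. The members, lists and named genes' rule were chosen with earlier results of these data known. Named were every probe set of the 5 genes, measured relatives, the 4 members of each pathway list with the largest absolute difference, and the genes of nearest profile. For the FGF readout list, etv5b, dusp6 and spry4 were named in place of that rule. The neighbours, hand2 and sp7 were added later, hand2 and sp7 after their values were seen. Genes named only to give a limit or the opposite direction within a list, such as fli1 and foxd3, were also added after their values were seen.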

Additional observations from a re-analysis of the deposited data

How the results depend on the processing

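The alternatives tried were a replicate block, a trended and robust variance, pseudocounts of 1 and 64, filters on the dimmest 25% or 50% of probe sets, cyclic loess, quantile normalisation, median centring, a floor at the Tag background, averaging over probe sets of 1 gene, and leaving out each array. The count passing the adjusted threshold was 0 in each except with single arrays left out, where it ran from 0 to 3 (3 without SU5402 replicate 2). At an unadjusted p under 0.05 in limma it was 2008 in the main fit, and it moved both up and down with single arrays left out. The median of the 5 genes, -3.26, ran from -4.05 to -2.29 with 1 array left out, both extremes from leaving out an SU5402 array. It was -2.48 with probe sets averaged and -2.81 with a floor at the Tag background. With 1 array left out the spread comes from 1 pair alone. All 7 probe sets, or all 4 kept in the filter at 50%, which drops barx1, were lower in each setting except runx2a's dim probe set without DMSO replicate 2. The T-box and Runx medians changed sign in 3 and 7 of 15 settings. Replicate numbers are shared between treatments but are not stated to mark a clutch. Deviations of same-numbered arrays correlated at 0.276 across probe sets. With a replicate block the adjusted count was 0, the median -3.26 and the count at an unadjusted p under 0.05 was 2582. Signal near the Tag background limits barx1 and the SU5402 values of prrx1b and tbx15.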
